A study of Mus musculus with 149 samples.

Results

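The solute carriers are membrane proteins that move sugars, amino acids, ions, organic acids, fatty acids and metals across the plasma membrane and the membranes of organelles. The genes described here were those whose annotated symbol begins with Slc and a digit and belongs to 1 of 14 families (Slc2, 4, 5, 6, 7, 9, 12, 16, 22, 26, 27, 34, 38 and 39), with Slc26a4 left out. This rule, which used names and no measured value, took 120 of 13494 genes, each represented by its probe set with the highest mean. In all, 267 genes had a symbol of Slc and a digit. By family they fell into carriers of amino acids (19 genes of Slc7 and Slc38), sugars (17, Slc2 and Slc5), neurotransmitters and amines (16, Slc6), bicarbonate and other anions (13, Slc4 and Slc26), organic ions (12, Slc22), monocarboxylates (11, Slc16), zinc (11, Slc39), sodium-proton exchange (7, Slc9), cation-chloride cotransport (6, Slc12), fatty acids (5, Slc27) and phosphate (3, Slc34). These groups follow the family name and not the substrate of each gene, so that Slc5a8, a monocarboxylate carrier, stands with the sugars, and Slc6a14 and Slc6a20a, carriers of amino and imino acids, with the amines. The name is not a measure of transport either: 6 of the 120 (Slc2a4rg-ps, Slc4a1ap, Slc6a19os, Slc7a6os, Slc9a3r1 and Slc9a3r2) carry a family name but are neighbours or partners of a carrier rather than carriers.

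In the lung, airway epithelium uses carriers to set the volume, acidity and glucose content of its surface liquid, and alveolar type 2 cells take up phosphate. Activated leukocytes take up more glucose, leucine, arginine and glutamine when they divide, and secretory cells draw on amino acids to build mucins. Thymic stromal lymphopoietin (TSLP) is a cytokine of barrier epithelium that acts on dendritic cells, mast cells, innate lymphoid cells and T cells and is linked to allergic inflammation of the airway.

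Expression was measured in whole lung of BALB/c mice, a strain prone to allergic responses, with 1 Affymetrix array per animal. Mice were either naive (73 arrays) or sensitized to ovalbumin, labelled OVA (76 arrays), and were challenged with saline, with 0.1% MSA buffer (a protein buffer that the labels do not expand), or with 150, 500 or 1500 ng of TSLP. Lungs were taken 6 or 24 h later. This gave 20 groups, of which 12 held 8 arrays, 5 held 7 and 3 held 6. The sources used here do not state age, sex or the sensitization schedule. The arrays hold RNA of all lung cells together, so fewer cells of a type and less RNA per cell cannot be told apart.

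The values are log2 robust multi-array averages (RMA), a probe-set summary made comparable between arrays, and a difference of 1 is a 2-fold difference in signal. Per-array medians ran from 8.97 to 9.16, and no pair of arrays held identical values (highest correlation 0.997). Lung markers were high (Sftpc of alveolar type 2 cells averaged 14.22, Scgb1a1 of club cells 14.30 and Ager of alveolar type 1 cells 14.07). Keratins of squamous gullet stood over 2 log2 units above the usual level on 6 arrays, of which 2 were in the naive buffer group at 6 h. The adjusted p-values are from limma's moderated test, two-sided, with Benjamini-Hochberg adjustment over 13494 genes, and a gene that passed 0.05 is said to have been called. Errors after ± are SDs over arrays where a group mean is given and standard errors of the fit (SE) where a difference is given.

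The sequences below are the 250 bases before the RefSeq start of 3 of the 4 genes that were higher in sensitized lungs in every comparison made, shown because these genes carry the clearest pattern of the set. Coordinates are of the mouse build GRCm38.p6, and each sequence is written 5′ to 3′ on the strand of its gene, with capitals marking the E-box CACGTG. Slc5a1 lies on the plus strand at chr5:33103969-33104218, Slc6a20a on the minus strand at chr9:123678833-123679082 and Slc7a8 on the minus strand at chr14:54781887-54782136.
Slc5a1: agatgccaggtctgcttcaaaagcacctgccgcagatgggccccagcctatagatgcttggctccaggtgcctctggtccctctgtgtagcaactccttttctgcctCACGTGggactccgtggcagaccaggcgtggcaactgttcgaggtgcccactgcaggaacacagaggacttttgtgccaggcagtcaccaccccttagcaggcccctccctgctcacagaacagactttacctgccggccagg
Slc6a20a: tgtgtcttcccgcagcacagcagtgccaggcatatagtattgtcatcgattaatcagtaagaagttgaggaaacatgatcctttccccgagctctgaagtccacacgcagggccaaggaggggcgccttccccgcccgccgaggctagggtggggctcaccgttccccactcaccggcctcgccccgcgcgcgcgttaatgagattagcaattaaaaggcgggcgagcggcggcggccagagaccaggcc
Slc7a8: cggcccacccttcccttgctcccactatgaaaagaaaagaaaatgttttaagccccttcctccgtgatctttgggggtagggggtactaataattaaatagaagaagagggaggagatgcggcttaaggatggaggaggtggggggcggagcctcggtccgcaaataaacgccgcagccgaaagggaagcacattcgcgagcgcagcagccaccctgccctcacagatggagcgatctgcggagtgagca

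Exact matches to 4 motifs were searched on both strands of these windows: the STAT6 form with TTC and GAA spaced by 4 bases, the AP-1 form TGANTCA, the amino acid response form TGATGNAA and the E-box CACGTG. Among the 3 genes only the Slc5a1 window held a match, the E-box 143 to 138 bases before the start. The RefSeq table held 121 promoters for 89 of the 120 genes. The E-box was present in 9.09% of those and in 6.02% of 32851 promoters in all, and AP-1 in 10.7% against 6.75%. The STAT6 form was present in 4.96% against 5.85%, and the amino acid response form in 3.31% against 3.45%. A match is a run of letters and does not show that a factor binds there.

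Slc5a1 and Slc6a20a had the largest differences between sensitized and naive lungs, both higher in sensitized lungs. With buffer as the challenge, 30 of the 120 genes were higher in OVA than in naive lungs at 6 h and 7 were lower, against 15.7% of all genes higher and 18.0% lower, that is 25% and 5.83% of the transporter genes. At 24 h, 12 were higher and 4 lower, where 5.03% and 3.53% of all genes were called (10% and 3.33% of the transporter genes). The 24 h count of 16 was 8 without OVA buffer replicate 8 and 9 without replicate 4, and it was 46 between the saline groups, where 30.3% of all genes were called. The median difference was 0.05 for the transporter genes and -0.01 for all genes at 6 h, and 0.01 and 0.00 at 24 h.

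**Figure D1:**
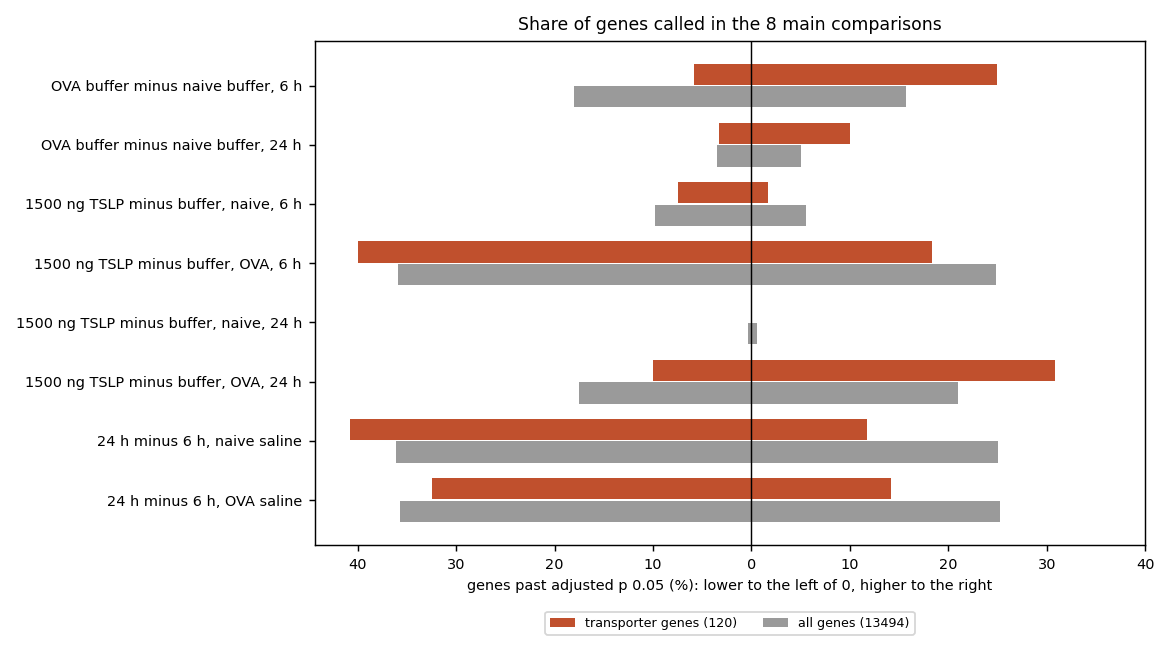
Share of genes past an adjusted p of 0.05 in the 8 main comparisons, in percent, lower to the left of 0 and higher to the right, for the 120 transporter genes (orange) and all 13494 genes (grey). The orange bar to the right is longer than the grey one for OVA against naive under buffer (25% against 15.7% at 6 h) and shorter for the late against the early lungs under saline (11.7% against 25.1% in naive mice).

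Slc5a1, the sodium-glucose cotransporter SGLT1 that carries glucose into epithelial cells, had values of 7.27, 7.99 and 8.59 (lowest, median and highest) in the 6 naive buffer lungs at 6 h and 7.84, 9.81 and 10.26 in the 8 OVA buffer lungs. At 24 h the values were 6.90, 7.45 and 8.10 in 7 naive lungs and 7.79, 9.27 and 10.56 in 8 OVA lungs. The ranges overlapped at both times through the lowest OVA lungs. The difference was 1.51 ± 0.30 at 6 h (SE, 2.85-fold, adjusted p = 3.35e-05) and 1.79 ± 0.29 at 24 h (3.45-fold, adjusted p = 2.80e-06). A second probe set of the gene rose by 1.15 and 1.19.

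Slc6a20a, the sodium-dependent carrier of proline and other imino acids, lay at 7.64, 8.71 and 9.05 in naive and at 8.57, 9.91 and 10.91 in OVA buffer lungs at 6 h. At 24 h it lay at 7.20, 7.66 and 8.23 in naive and at 8.39, 9.33 and 11.25 in OVA lungs. The groups overlapped at 6 h, and at 24 h every OVA lung was above every naive lung. The difference was 1.32 ± 0.34 (SE, adjusted p = 0.00135) at 6 h and 1.83 ± 0.33 (adjusted p = 3.53e-05) at 24 h.

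Over all 5 challenges and both times, which make 10 comparisons of OVA with naive lungs on separate arrays, 4 transporter genes were higher in OVA in all 10 and 1 was lower in all 10, where 2.34% and 0.578% of all genes met the same rules. The 4 were Slc5a1 (differences from 1.51 to 3.21), Slc6a20a (1.32 to 3.14), Slc7a8 (0.59 to 1.21) and Slc38a1 (0.41 to 0.66), and the lower one was Slc6a6 (-0.40 to -0.18). Slc38a1 and Slc6a6 were named after their values were seen. Slc7a8 encodes LAT2, an exchanger of neutral amino acids that pairs with the heavy chain 4F2hc, Slc38a1 the glutamine carrier SNAT1, and Slc6a6 the taurine carrier. The naive and OVA groups did not overlap in 7 of the 10 comparisons for Slc5a1 and Slc7a8, in 6 for Slc6a20a and Slc38a1 and in 3 for Slc6a6.

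**Figure D2:**
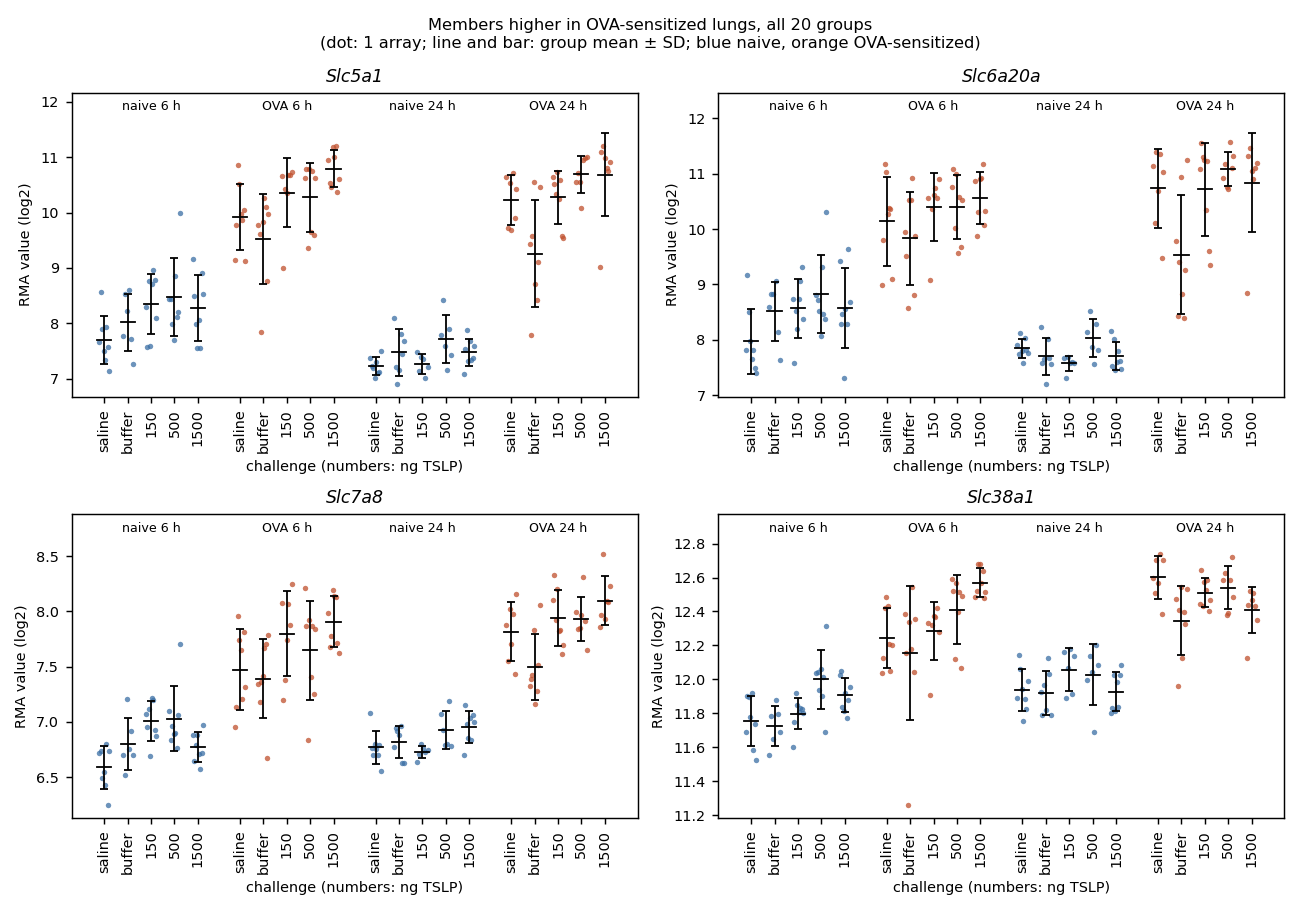
RMA values (log2) of Slc5a1, Slc6a20a, Slc7a8 and Slc38a1 in every array by group, with the group mean ± SD, naive in blue and OVA-sensitized in orange, and the numbers on the x axis giving ng of TSLP. In each of the 10 pairs of groups the OVA mean is above the naive mean, and in the OVA 1500 ng group at 24 h 1 lung lies low for Slc5a1 (9.01) and Slc6a20a (8.84).

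Under saline at 24 h the differences of Slc5a1 and Slc6a20a were 3.01 and 2.89. Slc5a1 lay at 7.01, 7.21 and 7.49 in 8 naive and 9.68, 10.44 and 10.71 in 7 OVA saline lungs at 24 h, with an SE of 0.29 (8.05-fold, adjusted p = 2.77e-16). Slc6a20a lay at 7.59, 7.81 and 8.12 against 9.48, 11.03 and 11.38, with an SE of 0.33 (7.43-fold, adjusted p = 1.95e-12). Neither pair of groups overlapped. At the same point Slc7a11, the cystine-glutamate exchanger, was 1.33 higher (adjusted p = 1.98e-05) and Slc7a10, a carrier of small neutral amino acids, 0.80 lower (-0.80, adjusted p = 4.09e-06).

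The counts under the other challenges were as follows, each against the share of all genes called in either direction. At 6 h, 24 transporter genes were higher and 14 lower in OVA under saline (23.5% of all genes), 37 and 12 under 150 ng (46.0%), 25 and 7 under 500 ng (32.0%) and 26 and 40 under 1500 ng (44.2%). At 24 h the counts were 26 and 20 under saline (30.3%), 26 and 12 under 150 ng (32.5%), 30 and 13 under 500 ng (32.8%) and 38 and 26 under 1500 ng (42.5%). Among all 13494 genes, those higher and lower at 6 h were, in the same order, 1477 and 1699, 3181 and 3022, 2467 and 1856, and 2306 and 3661. For 24 h they were 1885 and 2209, 2318 and 2066, 2264 and 2166, and 2660 and 3075. Of the 120 genes, 50 were higher at least in 1 of the 10 comparisons and never lower, 39 were lower and never higher, 13 were called in both directions and 18 in none. At least 1 higher call was found in 63 of the 120 and in 6270 of all 13494 genes. At least 1 lower call was found in 52 and in 7410. Higher in 9 of the 10 were Slc12a8, Slc16a12, Slc39a11, Slc7a2 (the arginine carrier CAT2) and Slc7a5 (the leucine carrier LAT1), and lower in 9 were Slc38a4 (-1.18 to -0.28), a carrier of neutral amino acids, and Slc7a10 (-0.80 to -0.23). With those called in all 10, 9 of the 120 and 538 of all 13494 genes were higher in at least 9. Lower in at least 9 were 3 of the 120 and 267 of all genes.

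Markers of goblet cells, the mucus-making cells of the airway, moved with these genes. All 5 (Clca1, Muc5ac, Muc5b, Spdef and Agr2) were higher in OVA buffer lungs at both times, with median differences of 3.09 and 2.31. Their mean level per lung ran from 7.21 to 8.73 in naive and from 9.50 to 12.39 in OVA buffer lungs at 6 h, and from 7.26 to 8.43 and from 10.02 to 11.58 at 24 h. B and plasma cell markers Jchain and Mzb1 (2 of 2 measured of a list of 4) were also higher at both times (medians 1.30 and 1.97), as were Chil3 and Mrc1 of 4 macrophage markers. At 6 h 4 of 4 endothelial markers were lower in OVA lungs (median -0.38, 10.67 to 11.42 in naive and 10.36 to 10.96 in OVA lungs), as were Myl3 and Tcap of 5 muscle markers (median -1.39, 9.47 to 12.95 and 8.27 to 12.67) and Adipoq of the 2 fat markers measured (median -1.06, 8.99 to 12.32 and 7.88 to 11.30). At 24 h Prg2 and Ccr3 of 4 eosinophil markers were higher, and Tek of 4 endothelial markers was lower. Aqp5 of 4 alveolar type 1 markers and Tppp3 of the 2 ciliated markers measured were lower at both times, and Ager was lower at 24 h. Sftpc of 3 alveolar type 2 markers measured and Scgb1a1 of 3 club markers were higher at 6 h. The part of these cells in the transporter differences was not tested.

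By family group at 6 h, where 25% of the 120 genes and 15.7% of all genes were higher, the amino acid families had 6 genes higher and 1 lower of 19, the sugar families 5 and 1 of 17 (with Slc5a8 among the 5), and the amine family 4 and 2 of 16. The cation-chloride family had 2 and 0 of 6, the sodium-proton family 2 and 1 of 7, and the zinc family 2 and 1 of 11. At 24 h, where 10% of the 120 genes and 5.03% of all genes were higher, the amino acid families had 5 and 1, the monocarboxylate family 3 and 0 of 11, and every other group at most 1 higher. At 6 h the next largest rises were those of Slc5a8 (1.20, adjusted p = 0.0425), which carries monocarboxylates with sodium, Slc6a17 (0.67, adjusted p = 0.00112), which loads neutral amino acids into vesicles, Slc22a13 (0.66, adjusted p = 3.90e-07), which carries urate and nicotinate, and Slc16a12 (0.60, adjusted p = 1.53e-05), which carries creatine. Slc5a8 was dim and variable: it ranked 119 of 120 by mean level (5.08), with an SD within groups of 0.89. It was called in 1 of the 10 comparisons of OVA with naive lungs, with differences from -0.74 to 1.20. At 24 h the next largest rises were those of Slc7a8 (0.68), Slc16a6 (0.60), Slc7a5 (0.55) and Slc7a2 (0.49), followed by Slc16a1 (0.45, adjusted p = 0.0188), the lactate carrier MCT1. The falls were smaller: Slc38a4 fell by 0.51 (adjusted p = 0.0182) and Slc5a2, the sodium-glucose carrier SGLT2, by 0.29 (adjusted p = 0.0115) at 6 h. The first call was lost without naive buffer replicate 6 or 4 or OVA buffer replicate 4 (adjusted p up to 0.0654), and the second without naive buffer replicate 7 (adjusted p = 0.0606). A second probe set gave -0.26 (adjusted p = 0.0811) for Slc38a4 and -0.20 (adjusted p = 0.0373) for Slc5a2. At 24 h Slc7a10 fell by 0.48 (adjusted p = 0.0217) and Slc39a6, a zinc importer, by 0.21 (adjusted p = 0.00238). The other probe sets of Slc39a6 gave -0.23 (adjusted p = 0.142) and -0.12 (adjusted p = 0.337). The Slc7a10 call was lost without naive buffer replicate 5 or OVA buffer replicate 8 or 4 (adjusted p up to 0.0812).

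**Figure D3:**
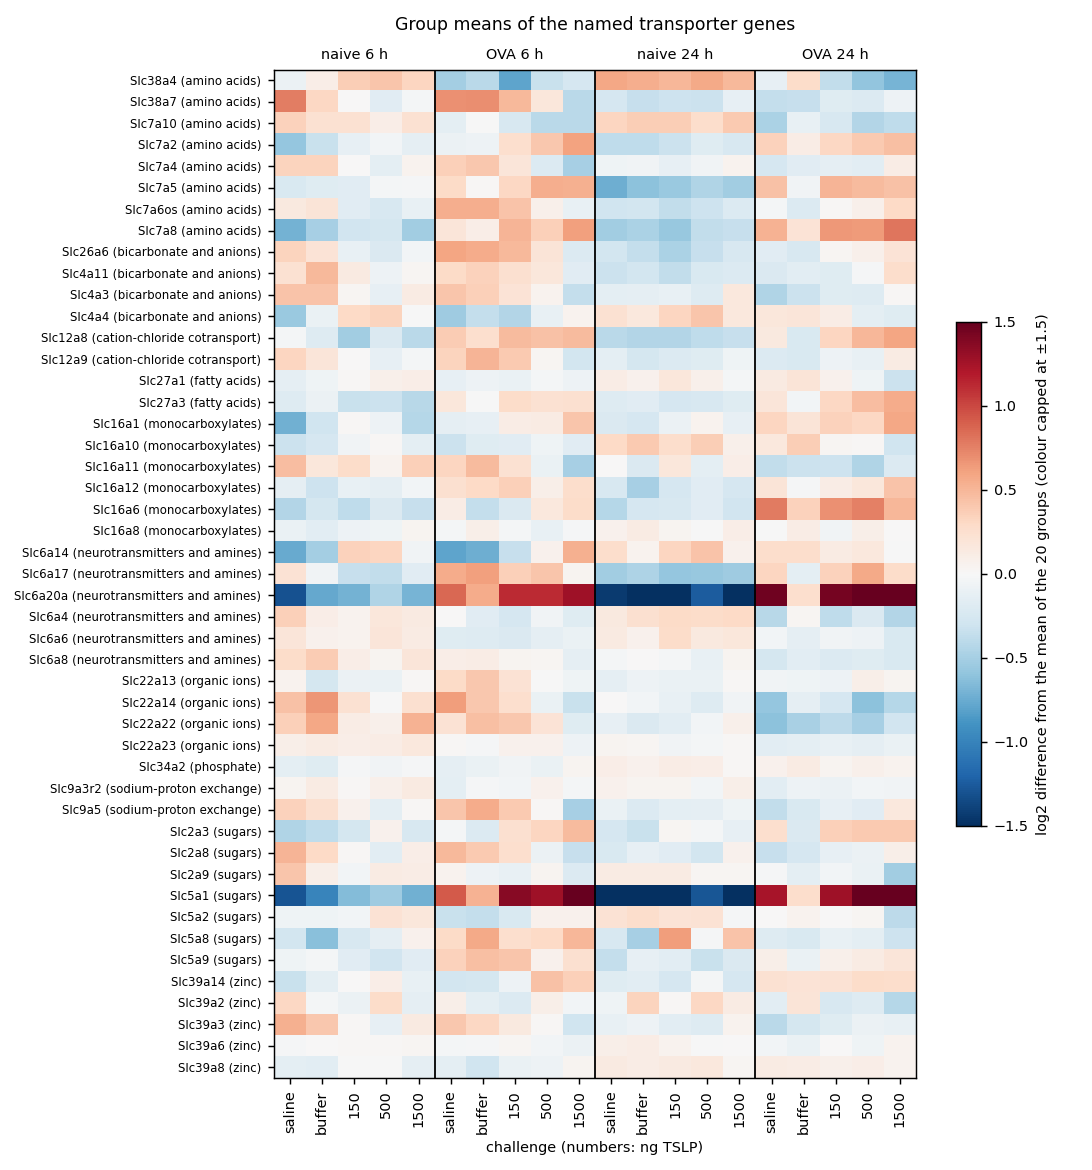
Group means of the 47 named transporter genes in the 20 groups, as log2 difference from each gene's mean over the groups (colour, capped at ±1.5), with genes ordered by role and groups by time, sensitization and challenge. Slc5a1 and Slc6a20a change from blue to red between the naive and the OVA blocks at both times, and the naive and OVA early blocks under saline and buffer share a colour for Slc38a7 and Slc9a5.

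In OVA-sensitized mice 24 h after challenge, 1500 ng of TSLP raised transporter genes above buffer more often than it lowered them. Of the 120, 37 rose and 12 fell, where 21.0% of all genes rose and 17.5% fell, so that 30.8% and 10% of the transporter genes were called. The median difference was 0.05 for them and 0.01 for all genes. By family, rises came from the amino acid families (8 of 19, with 2 falls) and the bicarbonate and anion families (7 of 13, 1 fall). Others came from the sugar families (6 of 17, 3 falls) and the cation-chloride family (4 of 6, no fall). Slc7a6os, not a carrier, was among the 8.

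Slc5a1 lay at 7.79, 9.27 and 10.56 in 8 buffer lungs and at 9.01, 10.92 and 11.21 in 7 TSLP lungs, and the groups overlapped because of 1 TSLP lung. The difference was 1.43 ± 0.29 (SE, 2.69-fold, adjusted p = 2.94e-05). Slc6a20a lay at 8.39, 9.33 and 11.25 against 8.84, 11.10 and 11.46, a difference of 1.30 ± 0.33 (2.46-fold, adjusted p = 0.000760). In the low TSLP lung (replicate 1) Slc5a1 stood at 9.01 against 10.76 to 11.21 in the other 6, and Slc6a20a at 8.84 against 10.90 to 11.46. The same lung was the lowest of its group for all 5 goblet markers, for example Muc5ac at 8.20 against 10.55 to 11.84 and Agr2 at 9.75 against 12.13 to 12.95. Leaving it out moved the differences to 1.71 and 1.63.

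These rises depended on the challenge used as the reference. Against saline in place of buffer, 22 transporter genes were higher and 12 lower (18.3% and 10%), where 15.8% of all genes were higher and 13.3% lower, and Slc5a1 differed by 0.45 (adjusted p = 0.253) and Slc6a20a by 0.10 (adjusted p = 0.865). In the OVA buffer lungs at 24 h Slc6a20a was lower than in the OVA saline lungs by 1.20 (-1.20, adjusted p = 0.0432), and Slc5a1 stood 0.98 below (-0.98, adjusted p = 0.0636). Buffer against TSLP and saline against TSLP share the TSLP arrays. The goblet list held 2 of 5 markers higher with TSLP against buffer (Muc5ac by 1.18 and Spdef by 1.06), with levels from 10.02 to 11.58 under buffer, 9.94 to 12.38 under TSLP and 10.77 to 12.03 under saline.

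Slc12a8 rose by 0.83 (adjusted p = 2.34e-06), Slc2a3, the glucose carrier GLUT3, by 0.62 (adjusted p = 0.000585) and Slc27a3, of the fatty acid carrier family, by 0.59 (adjusted p = 6.73e-05). Slc7a8 rose by 0.60 (adjusted p = 0.000152), Slc7a5 by 0.50 (adjusted p = 0.00640) and Slc4a2, the chloride-bicarbonate exchanger AE2, by 0.49 (adjusted p = 2.17e-08). Slc7a5 and Slc2a3 overlapped between the groups, whereas Slc4a2 did not. Slc7a6os, which is not a carrier, rose by 0.50. Levels in OVA lungs at 24 h, as log2 differences from each gene's mean over the 20 groups, follow in the order buffer, saline and 1500 ng. Slc7a5 lay at -0.06, 0.44 and 0.44, Slc2a3 at -0.22, 0.26 and 0.40 and Slc7a8 at 0.20, 0.52 and 0.80. Slc12a8 lay at -0.23, 0.15 and 0.60 and Slc27a3 at -0.04, 0.185 and 0.56. Each of these stood higher under saline than under buffer.

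Of the falls, those of Slc38a4 and Slc16a10 were the largest. Slc38a4 lay at 8.19, 9.13 and 9.41 under buffer and at 7.32, 8.07 and 8.46 under TSLP, and the groups overlapped. The difference was -0.96 ± 0.17 (SE, adjusted p = 2.19e-06), and a second probe set of the gene gave -0.20 (adjusted p = 0.181). Slc16a10, which carries aromatic amino acids and thyroid hormones, lay at 9.82, 9.92 and 10.15 under buffer and at 8.93, 9.31 and 9.73 under TSLP without overlap. Its difference was -0.67 ± 0.12 (adjusted p = 6.32e-06), and a second probe set gave -0.49 (adjusted p = 1.21e-05).

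**Figure D4:**
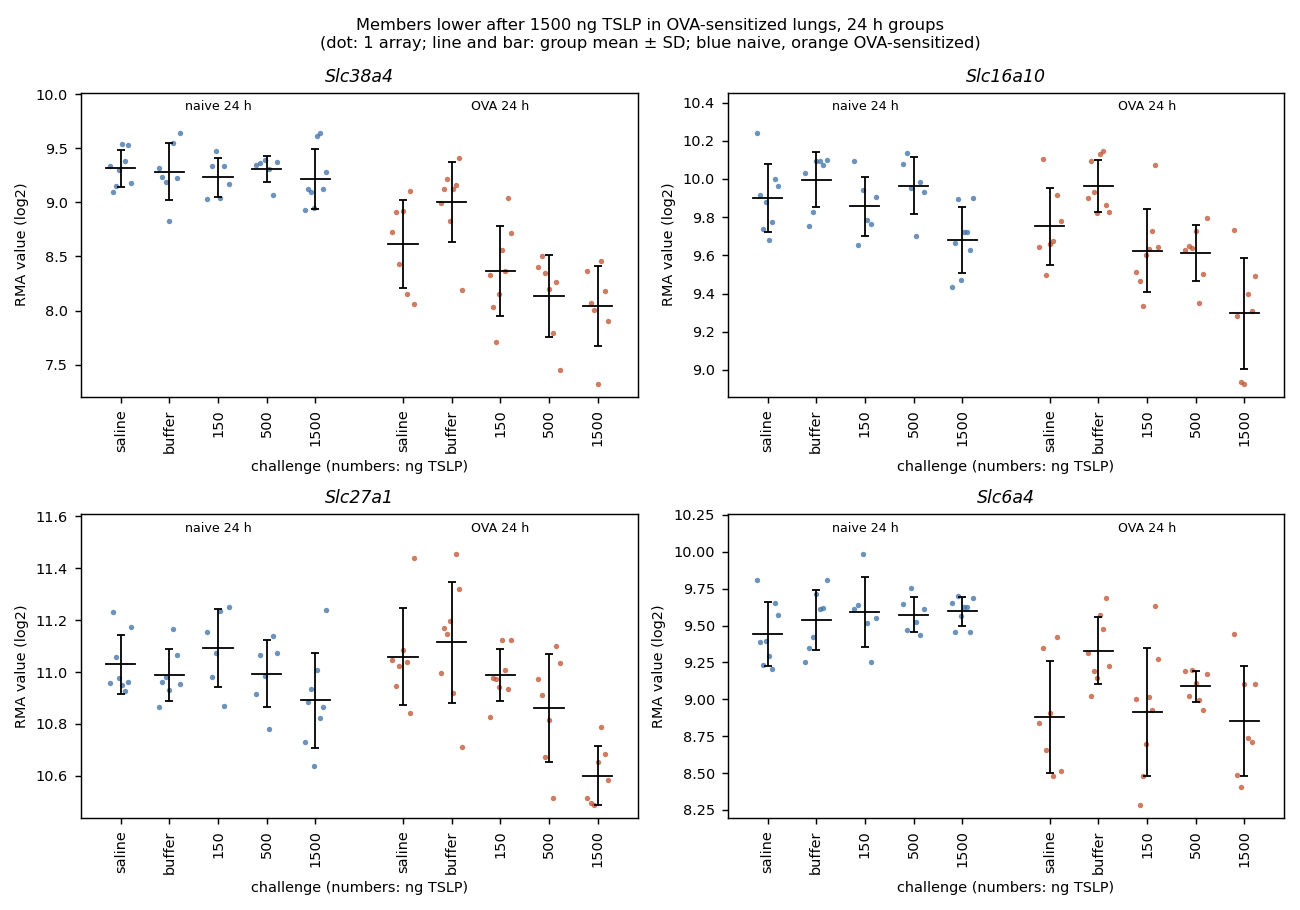
RMA values (log2) of Slc38a4, Slc16a10, Slc27a1 and Slc6a4 in every lung of the 24 h groups, with the group mean ± SD, naive in blue and OVA-sensitized in orange. In OVA lungs the values under 1500 ng of TSLP lie below those under buffer for Slc16a10, with no overlap (8.93 to 9.73 against 9.82 to 10.15), and overlap for Slc38a4.

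Slc27a1, the fatty acid carrier FATP1, fell by 0.51 (adjusted p = 2.16e-07) from values of 10.71, 11.16 and 11.45 to 10.49, 10.58 and 10.79. Slc39a2, a zinc importer, fell by 0.62 (adjusted p = 0.000415), Slc6a4, the serotonin transporter, by 0.48 (adjusted p = 0.00317), and Slc5a2 by 0.45 (adjusted p = 2.91e-05). Against saline, Slc38a4 differed by -0.57 (adjusted p = 0.00699), Slc16a10 by -0.46 (adjusted p = 0.00328) and Slc27a1 by -0.46 (adjusted p = 7.87e-06), while Slc6a4 differed by -0.03 (adjusted p = 0.916). Fat markers moved with these falls, with the 2 measured of 4 both lower under TSLP. Adipoq fell by 3.20 (adjusted p = 0.000274) and Fabp4 fell by 1.11 (adjusted p = 0.0364). Their mean level per lung ran from 8.11 to 12.33 under buffer and from 7.61 to 10.02 under TSLP. Of 4 endothelial markers 3 fell (median -0.32, 11.16 to 11.41 under buffer and 10.68 to 11.19 under TSLP). Also lower were Marco and Cd68 of 4 macrophage markers and Hopx and Pdpn of 4 alveolar type 1 markers. So were Scgb3a2 and Cyp2f2 of 3 club markers and Siglecf of 4 eosinophil markers. Cd4 of 4 T cell markers and Mzb1 of 2 plasma cell markers were higher, beside the goblet markers given above. The part of these cells in the falls was not tested.

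At 6 h in OVA-sensitized mice the share of transporter genes called was close to that of all genes. With 1500 ng of TSLP 22 rose and 48 fell, against 24.8% and 35.9% of all genes, so 18.3% and 40% of the transporter genes. The median difference was -0.12 for them and -0.06 for all genes. The bicarbonate and anion families had 9 falls of 13 (with Slc4a1ap, not a carrier, among them) and the organic ion family 8 of 12 with no rise. By contrast the sugar families had 5 rises and 2 falls of 17 and the zinc family 4 rises and 3 falls of 11.

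Slc5a1 lay at 7.84, 9.81 and 10.26 under buffer and at 10.38, 10.78 and 11.21 under TSLP in 8 lungs each, without overlap, a rise of 1.27 ± 0.28 (SE, adjusted p = 3.03e-05). Its second probe set gave 0.52 (adjusted p = 0.0576). Slc6a14, which takes up neutral and cationic amino acids at the airway surface, lay at 8.44, 8.72 and 9.41 under buffer and at 9.38, 10.13 and 10.43 under TSLP, with overlap at 1 edge. It rose by 1.27 ± 0.19 (adjusted p = 3.04e-09), and its other probe set by 0.50 (adjusted p = 7.74e-06). Slc9a5, a sodium-proton exchanger, lay at 9.62, 9.91 and 10.36 under buffer and at 8.71, 8.90 and 9.08 under TSLP without overlap, a difference of -1.06 ± 0.09 (adjusted p = 9.77e-19). Slc38a7, a glutamine carrier of the lysosome, lay at 10.31, 10.56 and 10.67 and at 9.25, 9.42 and 9.65, without overlap, a difference of -1.11 ± 0.11 (adjusted p = 1.05e-15).

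Further rises at 6 h were those of Slc7a2 (0.68), Slc2a3 (0.68), Slc39a14 (0.63), a zinc and iron importer of inflammation, and Slc16a1 (0.53), with adjusted p from 4.87e-08 to 0.000173. Further falls were those of Slc16a11 (-0.98), Slc7a4 (-0.91), Slc12a9 (-0.79), Slc26a6 (-0.77), an anion exchanger, and Slc2a8 (-0.74), a glucose carrier of intracellular membranes, each without overlap of the groups. Slc39a8, a zinc importer, rose by 0.33 (adjusted p = 6.24e-10) and Slc34a2, the phosphate carrier of alveolar type 2 cells, by 0.13 (adjusted p = 0.00180).

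A measure of RNA integrity and labelling moved with this contrast. The beta-actin 3′ probe set minus the 5′ probe set, in log2 units, where a larger value means less signal from the 5′ end, was 2.57 ± 0.26 (SD, n = 8) in OVA buffer lungs at 6 h and 1.26 ± 0.13 (n = 8) in the TSLP lungs. The difference was -1.32 ± 0.10 (SE), with an exact permutation test adjusted over the 8 main comparisons giving p = 0.000622. With this measure as a covariate in the fit, 5 transporter genes were called higher and 9 lower, 14 in all and 13 of them called without it too, where 7.72% of all genes were called. Of the 70 called without the covariate, 65 were smaller in size with it and 60 kept their sign. Slc5a1 was then at 1.05 (adjusted p = 0.0603), Slc6a14 at 0.76 (adjusted p = 0.0365), Slc9a5 at -0.49 (adjusted p = 0.000817) and Slc38a7 at -0.20 (adjusted p = 0.142). In the fit, TSLP and the measure are strongly linked, since the ranges of the measure (2.26 to 2.96 and 1.06 to 1.49) do not overlap between the groups.

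**Figure D5:**
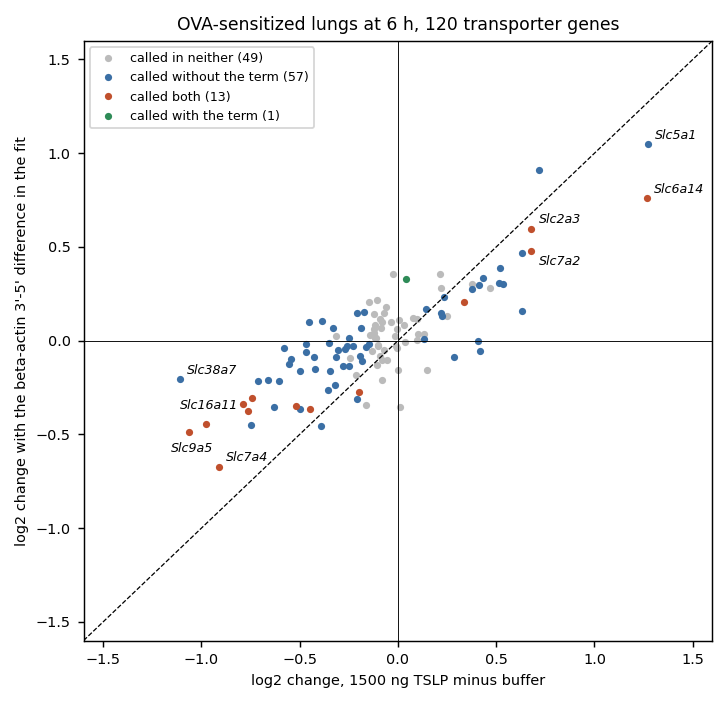
Log2 change of each of the 120 transporter genes with 1500 ng of TSLP against buffer in OVA lungs at 6 h, without (x axis) and with (y axis) the beta-actin 3′ minus 5′ difference in the fit; the dashed line marks equal values. Points lie closer to 0 on the y axis than on the x axis for 65 of the 70 genes called without the term, and 13 are called both ways.

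Markers of several cell types also moved with TSLP in OVA mice at 6 h. All 4 endothelial markers were higher (median 0.59), with mean levels of 10.36 to 10.96 under buffer and 11.07 to 11.32 under TSLP. Higher too were Mrc1 and Cd68 of 4 macrophage markers (10.88 to 11.41 and 11.33 to 11.60), Cd3e and Cd3g of 4 T cell markers (8.74 to 9.58 and 9.21 to 10.33), Mzb1 of 2 plasma cell markers (10.35 to 11.55 and 11.49 to 12.35) and Adipoq of 2 fat markers (7.88 to 11.30 and 9.41 to 11.12). One marker each of goblet (Spdef), ciliated (Foxj1), alveolar type 1 (Hopx), neutrophil (S100a9), eosinophil (Ccr3) and muscle (Actc1) lists was higher, while Scgb1a1 and Cyp2f2 of 3 club markers were lower (13.67 to 14.02 and 13.56 to 13.78). All 3 alveolar type 2 markers measured were called, 1 higher and 2 lower (14.03 to 14.14 and 13.99 to 14.05). The part of these cells was not tested. Over the main comparisons, the beta-actin measure differed in 7 of the 8 main comparisons by the same adjusted test, the exception being OVA against naive buffer at 24 h (0.03 ± 0.07 SE, adjusted p = 0.606). It was 0.44 ± 0.15 higher in OVA than naive buffer lungs at 6 h (adjusted p = 0.0142), 0.32 ± 0.14 higher with TSLP in naive mice at 24 h (adjusted p = 0.0178) and 0.32 ± 0.09 higher in OVA mice at 24 h (adjusted p = 0.000622). With the covariate, 17 transporter genes were higher and 6 lower for OVA against naive at 6 h (23.8% of all genes called) and 13 and 5 at 24 h (10.1%). For 1500 ng of TSLP against buffer the counts were 27 and 13 in OVA mice at 24 h (32.7%), 5 and 1 in naive mice at 6 h (4.66%) and 0 and 0 at 24 h (0.326%). The 4 genes higher in all 10 OVA comparisons were also higher in all 10 with it.

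In naive mice the number of transporter genes called with 1500 ng of TSLP at 6 h depended on the reference and on single arrays. Against buffer, 2 rose and 9 fell, where 5.53% of all genes rose and 9.82% fell (1.67% and 7.50% of the transporter genes). Against saline 44 were called, where 42.8% of all genes were, and leaving out 1 array at a time gave 3 to 27 against buffer. Slc34a2 lay at 13.07, 13.14 and 13.23 in 6 buffer lungs and at 13.19, 13.31 and 13.38 in 8 TSLP lungs, overlapping, a rise of 0.16 ± 0.04 (SE, adjusted p = 0.00461). Slc16a8 rose by 0.19 (adjusted p = 0.0453), a call lost in 7 of 14 fits with 1 array left out (0.10 to 0.26, adjusted p up to 0.381), those without buffer replicates 2, 3 and 5 and TSLP replicates 1, 2, 3 and 6. Slc4a11, of the bicarbonate family, lay at 8.00, 8.38 and 8.69 against 7.70, 7.94 and 8.13, overlapping, a fall of 0.45 (adjusted p = 0.000219). Slc38a7 fell by 0.34 (adjusted p = 0.0356), and the beta-actin measure fell by 0.53 (adjusted p = 0.0128). With that measure as a covariate Slc38a7 differed by 0.01947 (adjusted p = 0.916), and its call was lost in 7 of 14 fits with 1 array left out (adjusted p up to 0.165), those without buffer replicates 2, 3, 5 and 7 and TSLP replicates 2, 4 and 6. Slc39a13, Slc39a3, Slc7a4, Slc6a8 and Slc4a3 fell by between 0.20 and 0.31. Without the arrays with gullet keratins the count was 26, and it rose to 27 without 1 of the buffer arrays (replicate 6) that carried them.

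At 24 h in naive mice no transporter gene was called by limma, where 0.608% of all genes rose and 0.371% fell. An unadjusted p under 0.05 was found in 18 of the 120 transporter genes and in 2021 of all 13494 genes. The largest differences, Slc5a8 at 0.93 (adjusted p = 0.319) and Slc6a19 at -0.37 (adjusted p = 0.520), were not called. Slc5a1 lay at 6.90, 7.45 and 8.10 under buffer and at 7.08, 7.45 and 7.88 under TSLP.

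The differences between effects were tested directly. The signed 1500 ng effect at 6 h was higher in OVA than in naive mice in 14 transporter genes and lower in 24 (31.8% of all genes called). At 24 h it was higher in 9 and lower in 2 (4.42%). A lower signed effect can be a deeper fall, as for Slc38a7 at 6 h (-1.11 in OVA and -0.34 in naive mice). For Slc5a1 the 6 h effect was larger in OVA mice by 1.003 ± 0.41 (SE, adjusted p = 0.0463), and the 24 h effect by 1.43 ± 0.40 (adjusted p = 0.0257). Both effects were taken against buffer. Levels of Slc5a1 are given here as log2 differences from its mean over the 20 groups, in the order buffer, saline and 1500 ng. They were 0.26, 1.24 and 1.69 in OVA and -1.53, -1.77 and -1.53 in naive lungs at 24 h. At 6 h they were 0.52, 0.92 and 1.79 in OVA and -0.98, -1.30 and -0.72 in naive lungs. Slc38a4 fell further in OVA mice at 24 h, by 0.90 (-0.90 ± 0.24, adjusted p = 0.0172), and Slc27a1 by 0.42 (-0.42, adjusted p = 0.0211), while Slc4a2 rose more, by 0.43 (adjusted p = 0.00694). The Slc38a4 value is of the probe set used, and its second probe set did not pass in OVA mice at 24 h. At 6 h Slc16a11 (-1.17), Slc9a5 (-0.85), Slc22a13 (-0.75) and Slc12a9 (-0.58) had the smallest adjusted p (2.30e-07 to 2.93e-05), on the same arrays whose beta-actin measure fell.

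The effect also differed between times. The 24 h minus the 6 h effect of 1500 ng was called higher in 43 transporter genes and lower in 17 in OVA mice (60.2% of all genes), and higher in 11 and lower in 2 in naive mice (17.1%). In OVA mice Slc9a5 (1.46), Slc26a6 (1.22), Slc7a6os (1.16) and Slc12a9 (1.14) had fallen at 6 h, and Slc6a14 was lower by 1.54 (-1.54, adjusted p = 3.24e-07). The OVA effect under buffer differed between times in 1 gene only by this test, Slc22a13 (-0.65, adjusted p = 0.00433), where 2.90% of all genes were called. It was 0.66 higher in OVA lungs at 6 h and lay at medians of 6.70 in naive and 6.67 in OVA lungs at 24 h.

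The lower doses were compared with buffer in OVA mice at 24 h. With 150 ng, 12 transporter genes rose and 6 fell (10.5% of all genes called), and with 500 ng 20 rose and 4 fell (11.8%). Slc6a20a rose by 1.18 (adjusted p = 0.0115) and 1.55 (adjusted p = 0.000908) and Slc5a1 by 1.02 (adjusted p = 0.0126) and 1.44 (adjusted p = 0.000489) at 150 and 500 ng, with all doses set against the same buffer arrays. Slc38a4 fell by 0.64 (adjusted p = 0.00823) and 0.87 (adjusted p = 0.000361). These rises are against buffer. Slc6a20a and Slc5a1 both stood lower under buffer than under saline, and the saline lungs lay closer to those given 150 or 500 ng. As log2 differences from its mean over the 20 groups, Slc6a20a lay at 0.26 under buffer and 1.46 under saline. It lay at 1.44 with 150 ng and 1.81 with 500 ng. In the same order Slc5a1 lay at 0.26, 1.24, 1.28 and 1.70. The slope over the 3 doses, in log2 units per 10-fold dose, was called positive in 7 and negative in 5 transporter genes (15.0% of all genes, 946 and 1083). It was 0.42 (adjusted p = 0.330) for Slc5a1 and -0.33 (adjusted p = 0.175) for Slc38a4, neither called. Slc4a11 (0.44, adjusted p = 8.20e-05) and Slc12a4 (0.30, adjusted p = 4.36e-05), the potassium-chloride cotransporter KCC1, rose with dose. Slc2a9, a urate carrier (-0.48, adjusted p = 0.000313), Slc5a2 (-0.40) and Slc27a1 (-0.39) fell with dose.

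In OVA mice at 6 h calls were few at the lowest dose. Only Slc39a8 rose with 150 ng (0.20, adjusted p = 0.0402), and none fell, where 0.163% of all genes were called. With 500 ng, 17 rose and 28 fell (41.0%, 2558 and 2971 of all genes). The slope was positive in 13 and negative in 38 (50.4%, 2815 and 3986 of all genes), with Slc9a5 at -0.89 and Slc6a14 at 0.88 per 10-fold dose. The beta-actin measure in these groups was 2.29, 1.79 and 1.26 on average at 150, 500 and 1500 ng, and its part in the slopes was not tested.

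In naive mice at 6 h, 6 transporter genes rose and 18 fell with 150 ng (27.2% of all genes called) and 10 rose and 30 fell with 500 ng (42.1%), more than with 1500 ng. Of all 13494 genes, 1483 rose and 2191 fell with 150 ng, and 2134 and 3541 with 500 ng. The beta-actin measure in these naive groups was 1.65 and 1.44 on average against 2.14 under buffer, and 1.61 at 1500 ng. Slc6a14 rose by 0.85 (adjusted p = 0.00102) and 0.84 (adjusted p = 0.000461), and stood 0.45 higher (adjusted p = 0.105) at 1500 ng. The slope was called in 1 gene, Slc22a12, a urate carrier (0.36, adjusted p = 0.00659, 0.170% of all genes). At 24 h in naive mice none was called by limma with 150 ng (0.215%), with 500 ng (0.00%) or for the slope (0.452%). In that order, an unadjusted p under 0.05 was found in 10, 9 and 19 transporter genes. Among all 13494 genes it was found in 1323, 637 and 2002.

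Buffer and saline, the 2 controls, were compared with each other. In naive mice at 6 h, 6 transporter genes were higher under buffer and 8 lower (14.9% of all genes, 1092 higher and 922 lower). They were led by Slc7a3 (0.67, adjusted p = 0.00118), an arginine carrier, and Slc38a7 (-0.45, adjusted p = 0.00526). In OVA mice none was called at 6 h (0.356%), and in naive mice none at 24 h (0.00741%). In that order, an unadjusted p under 0.05 was found in 10 and 6 transporter genes and in 2072 and 452 of all 13494 genes. In OVA mice at 24 h, Slc6a20a, given above, was the 1 call (0.882%).

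Between 6 and 24 h under saline, falls outnumbered rises among the transporter genes and among all genes. From 6 to 24 h, 14 rose and 49 fell in naive mice, against 25.1% and 36.1% of all genes (11.7% and 40.8% of the transporter genes). In OVA mice 17 rose and 39 fell, against 25.3% and 35.7% (14.2% and 32.5%). In the bicarbonate and anion families 8 of 13 genes fell, and in the organic ion family 7 of 12, in both.

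Slc38a7 lay at 10.23, 10.55 and 10.86 at 6 h and at 9.34, 9.56 and 10.08 at 24 h in naive saline lungs, without overlap, a difference of -1.01 ± 0.11 (SE, adjusted p = 1.28e-13). In OVA saline lungs it lay at 10.32, 10.50 and 10.83 and at 9.28, 9.44 and 9.85, a difference of -1.05 ± 0.11 (adjusted p = 6.57e-14). Slc2a8 fell in naive mice by 0.74 (adjusted p = 2.21e-13), and Slc22a14 in OVA mice by 1.20 (adjusted p = 9.38e-10). Slc6a14 rose by 1.01 ± 0.19 (adjusted p = 1.29e-06) and 1.05 ± 0.19 (adjusted p = 1.00e-06), but its other probe set gave -0.04 and 0.05. Slc4a4, the sodium-bicarbonate cotransporter, rose by 0.78 and 0.71, with 1 of its 3 probe sets in the other direction (-0.51 and -0.69).

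Slc34a2 rose from 13.05, 13.20 and 13.26 to 13.34, 13.40 and 13.54 in naive saline lungs, without overlap, by 0.24 (adjusted p = 6.15e-08). Slc39a8 rose by 0.28 and 0.27, Slc12a2, the sodium-potassium-chloride cotransporter, by 0.45 and 0.34, and Slc16a1 by 0.51 and 0.45 in naive and OVA mice. Falls shared by both included Slc26a6 (-0.61 and -0.76), Slc39a3 (-0.64 and -0.81), a zinc importer, and Slc4a3 (-0.58 and -0.87), an anion exchanger. The beta-actin measure fell by 1.04 in naive and by 1.18 in OVA saline lungs (both adjusted p = 0.000622). Endothelial markers were higher at 24 h in both (4 of 4, medians 0.63 and 0.65, 10.55 to 11.16 and then 11.23 to 11.60 in naive lungs), and 4 of 4 eosinophil markers in OVA lungs (6.39 to 7.22 and then 7.39 to 9.10). Foxj1, Mrc1 and Jchain were higher in both. In naive lungs Cd8a was lower, and each alveolar list had 1 marker higher and 1 lower. In OVA lungs Cd68, S100a9, Actc1 and Mzb1 were also higher, and Scgb1a1, Ager, Pdpn and Aqp5 lower. Of the T cell markers 2 were higher and 1 lower there, and of the alveolar type 2 markers 1 higher and 2 lower. The part of all these cells was not tested. With the beta-actin measure as a covariate the counts were 8 and 13 in naive (27.0% of all genes) and 6 and 17 in OVA mice (23.6%), and Slc38a7 fell by 0.29 (adjusted p = 0.00579) and 0.24 (adjusted p = 0.0393).

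Under buffer the same contrast called 8 rises and 36 falls in naive (49.9% of all genes) and 18 and 45 in OVA mice (61.8%). With 1500 ng of TSLP at both times it called 1 rise and 10 falls in naive (11.1%) and 23 rises and 9 falls in OVA mice (30.8%). In the latter Slc9a5 (0.67), Slc7a4 (0.62) and Slc2a8 (0.44) were higher at 24 h, and Slc6a14 was lower by 0.54 (-0.54, adjusted p = 0.0240).

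Some transporter genes did not pass in any of the 8 main comparisons: 16 of 120, where 10.4% of all genes did not. They included Slc2a4, the insulin-responsive glucose carrier of fat and muscle, Slc4a1, the anion exchanger of red cells, and Slc34a1, a phosphate carrier known from kidney. Slc4a1 had one of the larger ranges of group means (1.35), with wide spread between the arrays of a group (SD 0.58), and Slc7a11 had a range of 1.55.

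Genes that work with the carriers, from a list of 44 of which 35 were measured, were compared in the same way. Over the 6 comparisons given here their shares called lay on both sides of those of all genes. Under buffer 4 were higher and 10 lower in OVA than naive lungs at 6 h (11.4% and 28.6%, where 15.7% and 18.0% of all genes were called), and 4 and 2 at 24 h (11.4% and 5.71%, where 5.03% and 3.53% were). Fxyd4, a regulator of the sodium pump, was 2.71 higher at 6 h (adjusted p = 2.10e-06) and 3.19 higher at 24 h (adjusted p = 3.82e-08), and Kcne3, a potassium channel subunit, 1.17 and 1.20 higher. Kcnn4, a calcium-activated potassium channel, was 0.64 and 0.58 higher. The sodium channel subunit Scnn1b was lower by 0.26 and 0.30 (-0.26 and -0.30, adjusted p = 0.0380 and 0.0326).

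With 1500 ng of TSLP the partner list had 13 rises and 11 falls in OVA mice at 6 h (37.1% and 31.4%, beside 24.8% and 35.9% of all genes) and 6 and 8 at 24 h (17.1% and 22.9%, beside 21.0% and 17.5%). In naive mice it had 1 and 2 at 6 h (2.86% and 5.71%, beside 5.53% and 9.82%) and 1 and 0 at 24 h (2.86% and 0%, beside 0.608% and 0.371%). Fxyd4 rose by 1.69 (adjusted p = 0.000350) and 2.08 (adjusted p = 8.56e-05) in OVA mice at 6 and 24 h. Kcnn4 fell by 0.55 at 6 h and rose by 1.04 at 24 h. Cftr, the chloride channel of airway epithelium, fell by 0.45 at 6 h and rose by 0.25 at 24 h (adjusted p = 0.0233), and Car2, a carbonic anhydrase, rose by 0.72 at 6 h. Slc3a2, the heavy chain that Slc7a5 and Slc7a8 need, differed by 0.04 (adjusted p = 0.310) at 6 h and by -0.08 (adjusted p = 0.0897) at 24 h.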

How the data were processed

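Whole-lung RNA was prepared with a mirVana kit, and 100 ng was labelled with 3′ IVT Express reagents (stated in the labels' protocols). The authors deposited log2 values of 26166 probe sets for all arrays. The submitters' processing notes name RMA (version not given in the sources used here). Probe sets with 1 gene symbol in GEO's platform annotation (22892, beside 260 with several and 3014 unnamed) gave 13494 genes, each by its probe set with the highest mean, and all 120 members matched a RefSeq gene. With limma 3.58.1 in R 4.3.3, 1 mean per group was fitted over all arrays (129 residual degrees of freedom, no covariate) and 41 comparisons were taken, 8 of them main. The median residual SD per gene was 0.16 log2 units (members 0.18), which with 6 to 8 arrays a group sets the precision. Labels that give each array its own animal are the basis of n, and the p-values measure the spread between these animals.

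Named genes were the largest rises and falls of each comparison (2 of each in full and 6 more with values in the main ones, 3 in the others), members past the threshold in a difference of effects, the 5 with the largest range of group means, and a list of genes with known lung or inflammation roles (24 of 30 measured). The members and gene lists were chosen with earlier results of these data known. Alternatives were other probe-set rules, a filter on dim genes, quantile normalization, array weights, a replicate block, the beta-actin difference as a covariate, arrays left out, saline as the reference and fits of the compared groups alone. Slc26a4 was left out by the rule. On simulated data for OVA 1500 ng against buffer at 24 h, the fit recovered 50% of genes changed by 0.25 log2 units, 78% by 0.5, 96% by 1 and 100% by 2. It also called 9 unchanged genes. The simulation changed 50 genes at each size, far fewer than were called in the data, and its noise was independent between genes. Its rates therefore need not hold for the data.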

Additional observations from a re-analysis of the deposited data

Results flagged for a closer look

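In 53 pairs of a gene and a group checked, 3 arrays stood apart from the others of their group by Dixon's gap test, which marks about 1 in 20 by chance. Slc5a1 was 9.01 and Slc6a20a 8.84 in replicate 1 of the OVA 1500 ng group at 24 h, the lung that was also lowest in goblet markers. Slc38a7 was 10.08 in replicate 3 of the naive saline group at 24 h, against 9.34 to 9.67 in the others.

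Effects that differed between groups by a direct test in limma, on the log2 scale with adjusted p, were these. The signed 1500 ng effect at 6 h was lower in OVA than in naive mice for Slc16a8 (-0.29, adjusted p = 0.0111) and Slc2a8 (-0.55, adjusted p = 0.000251). The same held for Slc38a7 (-0.77, adjusted p = 0.000161) and Slc9a5 (-0.85, adjusted p = 4.55e-07). For Slc38a7 this was a deeper fall in OVA mice (-1.11) than in naive mice (-0.34). The signed effect was higher in OVA mice for Slc5a1 (1.003, adjusted p = 0.0463) and Slc6a14 (0.81, adjusted p = 0.0165). At 24 h the difference was -0.90 for Slc38a4, 0.26 for Slc39a6 and 1.43 for Slc5a1 (adjusted p from 0.0172 to 0.0257). These effects were taken against buffer, and the levels of Slc5a1 under saline are given above.

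Between times, the 24 h minus the 6 h effect in naive mice was 0.39 for Slc2a8, -0.21 for Slc34a2, 0.56 for Slc38a7, 0.52 for Slc4a11 and -0.53 for Slc5a2. In OVA mice it was positive for Slc2a8 (1.09), Slc38a7 (1.38), Slc39a6 (0.23), Slc4a11 (0.94) and Slc9a5 (1.46). It was negative for Slc16a10 (-0.68), Slc34a2 (-0.20), Slc38a4 (-1.11), Slc4a4 (-0.77), Slc5a2 (-0.87) and Slc6a14 (-1.54). The beta-actin measure fell with 1500 ng at 6 h in both kinds of mice, and its part in these differences was not tested.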

How the results depend on the processing

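Counts of transporter genes called moved as follows, and the cause was not tested unless the construction gives it. With the dimmest 40% of genes left out, which leaves fewer genes to call, the counts were 18 (OVA against naive, 6 h), 42 and 32 (1500 ng, OVA, 6 and 24 h) and 36 (time, naive saline). With the beta-actin covariate they were 23 (OVA against naive, 6 h), 6 (1500 ng, naive, 6 h), 14 (OVA, 6 h), and 21 and 23 (time, naive and OVA). Fitting the compared groups alone, with fewer arrays for the spread, gave 17 and 9 for OVA against naive at 6 and 24 h and 0 for 1500 ng in naive mice at 6 h. Saline in place of buffer gave 46 for OVA against naive at 24 h, 44 for 1500 ng in naive mice at 6 h and 1 at 24 h. For 1500 ng in naive mice at 6 h the mean of all probe sets gave 7, array weights 27 and leaving out gullet keratin arrays 26; array weights gave 1 at 24 h. Leaving out 1 array at a time gave 28 to 41, 8 to 18, 3 to 27, 67 to 72, 0 to 0, 40 to 49, 55 to 63 and 53 to 60 in the order OVA against naive at 6 and 24 h, 1500 ng in naive and OVA mice at 6 h, in naive and OVA mice at 24 h, and time in naive and OVA saline mice. OVA against naive at 24 h fell to 8 without OVA buffer replicate 8 and to 9 without replicate 4. For 1500 ng in naive mice at 6 h, 10 of 14 arrays moved the count by over 1.5 times: it was 27, 7, 4 and 3 without buffer replicates 6, 3, 2 and 5, and 6, 6, 7, 22, 6 and 18 without TSLP replicates 4, 2, 6, 5, 1 and 3. With the replicate number as a block the counts were 37, 15, 11, 70, 0, 47, 63 and 57, in the order used for the arrays left out; same-numbered arrays correlated over 0.1 in 17 of 56 pairs (-0.516 to 0.821), so the numbers are not taken to pair animals. Signs turned for Slc38a7 with 1500 ng in naive mice at 6 h (0.01947, adjusted p = 0.916) and Slc5a2 over time in naive saline mice (-0.09321, adjusted p = 0.464) with the covariate, and for Slc38a4 over time in OVA saline mice (-0.11, adjusted p = 0.446) with the mean of all probe sets. Of 101 results for single genes, 62 kept their call and sign with the covariate, 79 with saline as the reference, 88 with the mean of all probe sets, 94 with quantile normalization, 96 without gullet keratin arrays and 99 with the block.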
